A study of Mus musculus with 16 samples.

Results

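The genes described here are 10 genes that mark microglia in brain tissue: C1qa, C1qb, C1qc, Ctss, Ccl3, Cx3cr1, Csf1r, Aif1, Cd68 and Trem2. They were taken by gene symbol from 19938 genes on an Affymetrix gene array. Each was read by 1 probe set that carries its symbol alone. No level entered the rule, but the genes were chosen with earlier results of these data known. The question was how these genes behave in samples that were sorted to hold neurons. All cells were mouse cells of genotype Pitx3GFP/+ on a mixed C57BL/6 x 129/Ola strain, in which Pitx3, the gene of a midbrain dopaminergic transcription factor, drives green fluorescent protein (GFP). The design text says that GFP-positive cells were collected by fluorescence-activated sorting.

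Treated cells (5 biological replicates) were differentiated from induced pluripotent stem cells (iPSCs) in the presence of 2 recombinant human proteins, the Wnt ligand WNT1 and DKK3, a secreted member of the Dickkopf family. Control cells (5 biological replicates) were differentiated from iPSCs of the same genotype without them. Primary cells came from the ventral midbrain of embryos at E13.5 or E14.5, with 3 arrays for each stage that the labels call technical replicates, so each stage is 1 sample. How many embryos were pooled, and whether the biological replicates were separate cultures or lines, is not given in the sources used here. The p-values therefore cover only the spread between these samples, which may be technical. In comparisons with primary cells, the 3 groups shared 1 estimate of spread for each gene. The primary group gave only 2 samples of different stages to it. SEs and p-values of these comparisons can thus be too small where the stages differ. Values are log2 levels after RMA, and array medians over all 35556 probe sets lay between 5.85 and 6.02. Over the 19938 genes tested, array medians were 6.17 to 6.25 on primary and 6.37 to 6.44 on iPSC-derived arrays. The number of arrays limits the precision.

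Microglia are the resident macrophages of the brain. They arise from yolk sac progenitors that enter the neural tube early in development, depend on the receptor encoded by Csf1r, and lie beside the neurons in the embryonic midbrain. They make the 3 chains of C1q, which starts the classical complement cascade, clear dying cells into lysosomes rich in the cathepsin encoded by Ctss, and read signals from neurons through receptors such as those encoded by Cx3cr1 and Trem2. Several of the genes are not exclusive to microglia: Cd68 encodes a lysosomal membrane protein that other phagocytic and some non-myeloid cells also make, and Csf1r is also expressed by trophoblast cells.

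As a guide to dim values, each level was set against the 1015 olfactory receptor genes on the same array, which these cells are not known to use. Their median was 3.75 to 3.88 on iPSC-derived arrays and 4.02 to 4.17 on primary arrays, and their 95th percentile was 5.04 to 5.21 and 5.34 to 5.60. Probe sets differ in background, so this is a guide and not a detection call. Cx3cr1, Csf1r, Cd68 and Trem2 exceeded the 95th percentile on all 16 arrays, C1qb on 15, C1qc on 14 and C1qa on 13. Ccl3 exceeded it on the 6 primary arrays only, Ctss on the 3 E14.5 arrays only, and Aif1 on 0 of 16 arrays. Aif1, which encodes the actin-binding protein IBA1 used to stain microglia, was therefore at the level of dim probe sets in every group.

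A few libraries stood apart. Treated and control arrays numbered 5 had a mean of 7.97 and 7.57 over 12 dopaminergic neuron genes, against 5.74 to 6.00 on the other iPSC-derived arrays and 9.21 to 9.71 on primary arrays, so the labelled cell type was poorly marked on 8 of 10 iPSC-derived arrays. Among primary arrays, E13.5 array 3 was low for Ccl3 and E14.5 array 1 was high for C1qb, as given below. E13.5 array 3 also differed beyond Ccl3. It had the highest olfactory receptor median (4.17), olfactory 95th percentile (5.60) and lower quartile over all genes (5.11) of all arrays. Values without these arrays are given where a result rests on them.

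Promoters of 8 of the 10 genes were found in a RefSeq table (build GRCm38.p6), and those of C1qa and Csf1r were not used here. The 250 bases before the start are shown for Ctss (chr3:95526536-95526785, plus strand), C1qc (chr4:136892915-136893164, minus strand) and Ccl3 (chr11:83649379-83649628, minus strand), the genes that stood higher at E14.5, and for Cd68 (chr11:69666171-69666420, minus strand), which was instead higher in iPSC-derived cells. Capitals mark GAGGAA on either strand, the purine-rich core of the site known for PU.1, the myeloid transcription factor encoded by Spi1. In C1qc they mark the longer form GAGGAAGT, which contains the core.
Ctss: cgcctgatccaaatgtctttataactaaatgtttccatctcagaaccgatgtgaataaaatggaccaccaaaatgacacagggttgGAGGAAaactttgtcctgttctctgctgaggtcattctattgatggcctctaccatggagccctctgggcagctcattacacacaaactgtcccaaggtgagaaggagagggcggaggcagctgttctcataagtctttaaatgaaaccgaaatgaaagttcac
C1qc: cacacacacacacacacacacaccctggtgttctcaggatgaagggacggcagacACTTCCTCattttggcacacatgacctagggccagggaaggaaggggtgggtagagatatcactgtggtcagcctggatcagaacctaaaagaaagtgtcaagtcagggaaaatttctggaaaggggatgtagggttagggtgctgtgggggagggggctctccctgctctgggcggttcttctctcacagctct
Ccl3: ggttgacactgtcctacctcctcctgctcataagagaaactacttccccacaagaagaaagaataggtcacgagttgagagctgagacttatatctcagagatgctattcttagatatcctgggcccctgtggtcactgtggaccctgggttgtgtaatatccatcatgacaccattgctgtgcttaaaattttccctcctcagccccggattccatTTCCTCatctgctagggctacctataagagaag
Cd68: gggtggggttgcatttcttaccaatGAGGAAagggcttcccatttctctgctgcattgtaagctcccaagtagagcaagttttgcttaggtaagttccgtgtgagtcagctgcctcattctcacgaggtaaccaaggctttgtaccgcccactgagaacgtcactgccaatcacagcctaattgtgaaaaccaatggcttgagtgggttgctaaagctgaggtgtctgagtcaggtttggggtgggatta
The core was present in 7 of the 8 windows (C1qb, C1qc, Ctss, Ccl3, Aif1, Cd68 and Trem2, but not Cx3cr1), and in 23.3% of 32851 promoter windows of the same length. The longer form was present in C1qc alone and in 2.44% of all windows. The letters were chosen with these sequences known, and a match describes the window and says nothing of binding. Spi1 itself was at 4.99 in control and 5.06 in primary cells and was not called different (log2 difference -0.07, limma adjusted p = 0.73). It lay below the olfactory 95th percentile on every array but control array 1 (5.37), so this dim probe set says little about a difference.

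**Figure D1:**
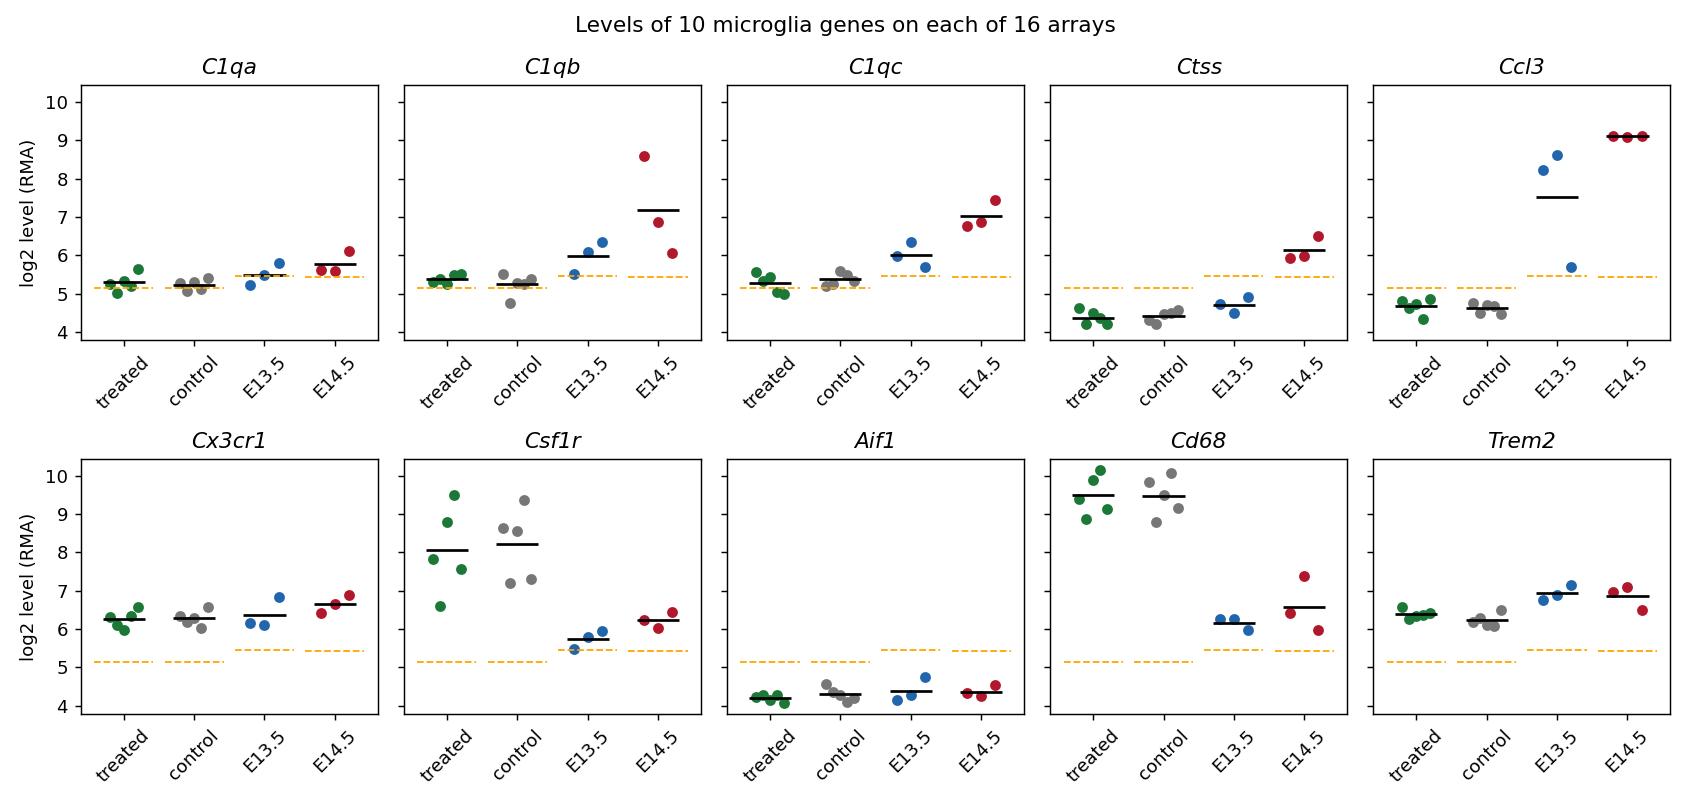
Log2 level (RMA) of each of the 10 genes on every array, by group; points are arrays, black bars are group means, and dashed lines are the group mean of the 95th percentile of olfactory receptor genes. Ctss rises above the dashed line only at E14.5, Ccl3 only in primary cells, Aif1 in no group, while Csf1r and Cd68 are high on the iPSC-derived arrays.

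In the comparison of control iPSC-derived with primary cells, the genes did not move as a set: 5 were lower in control cells (C1qb, C1qc, Ctss, Ccl3 and Trem2), 2 were higher (Csf1r and Cd68), and 3 did not pass (C1qa, Cx3cr1 and Aif1). Over all genes, 41.9% were called, 19.3% higher and 22.5% lower, so a count of 7 of 10 stands against a high background. Higher genes made up 46.2% of these calls, but 25.6% with arrays centred on their median and 72.3% with the olfactory receptor median subtracted. The median difference was -0.53 over the 10 genes and -0.11 over all genes. Olfactory receptor genes also had a median of -0.26, with 324 of 1015 called lower and 0 higher, so differences of that size occur among dim probe sets. Levels on the 6 primary and 10 iPSC-derived arrays did not overlap at all for Ccl3, C1qc, Csf1r and Cd68, as for 26.8% of all genes. In bulk RNA, fewer cells of a type and less RNA per cell cannot be told apart.

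Of the C1q chains, C1qb and C1qc were lower in control cells and C1qa did not pass. C1qc was at 5.21, 5.25, 5.61, 5.50 and 5.33 on control arrays 1 to 5, and at 5.56, 5.32, 5.44, 5.04 and 4.98 on treated arrays 1 to 5. It was at 5.99, 6.34 and 5.70 on the E13.5 arrays and at 6.78, 6.86 and 7.43 on the E14.5 arrays. Every primary array was above every iPSC-derived array, and the E14.5 arrays were highest. The difference between control and primary cells was -1.14 (SE 0.24, limma adjusted p = 0.0022), and against E13.5 alone it was -0.64 and not called (limma adjusted p = 0.0572, with 0.00031 to 0.0572 over 29 settings). C1qb was at 5.52, 6.08 and 6.34 at E13.5 and at 8.60, 6.88 and 6.06 at E14.5, with E14.5 array 1 far above the other 2. Control arrays held C1qb at 4.77 to 5.52 and treated arrays at 5.26 to 5.52, which touches the lowest E13.5 array. Its difference was -1.34 (SE 0.26, limma adjusted p = 0.0015), and it was -0.98 without E14.5 array 1 and -0.74 against E13.5 alone, called in both (limma adjusted p = 0.0011 and 0.0336, with 0.00012 to 0.0336 over 29 settings). For treated cells it was -0.84 without E14.5 array 1 (limma adjusted p = 0.0033). C1qa had means of 5.24 ± 0.14 (SD, n = 5) in control and 5.64 in primary cells, a difference of -0.40 (SE 0.16, limma adjusted p = 0.0582) that missed the threshold. C1qa was called lower in 13 of 29 alternative settings (limma adjusted p = 0.0063 to 0.50).

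Ctss encodes cathepsin S, a lysosomal protease that also trims class II antigen complexes. It was at 4.22 to 4.58 on control arrays and at 4.20 to 4.63 on treated arrays, all below the olfactory 95th percentile. The E13.5 arrays held it at 4.72, 4.50 and 4.92 and the E14.5 arrays at 5.94, 5.99 and 6.51, so only the later stage stood clear. The difference between control and primary cells was -1.02 (SE 0.28, limma adjusted p = 0.0119). Against E13.5 alone Ctss differed by -0.30 and was not called (limma adjusted p = 0.261, with 7.2e-05 to 0.261 over 28 settings), so its call rests on the E14.5 sample.

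Ccl3, a chemokine gene of activated microglia and macrophages, had the largest measured difference of the 10. It was at 4.77, 4.51, 4.71, 4.68 and 4.46 on control arrays and at 4.82, 4.62, 4.72, 4.35 and 4.85 on treated arrays, below the 95th percentile of olfactory receptor genes throughout. E13.5 arrays held it at 8.22, 8.62 and 5.70, and E14.5 arrays at 9.11, 9.09 and 9.10. The primary arrays thus lay far above the iPSC-derived ones, with E13.5 array 3 in between. Control cells were lower by a difference of -3.68 (SE 0.30, limma adjusted p = 1.7e-06), which was called in all 29 alternative settings (-4.47 to -2.89). The stage means were 7.51 and 9.10, while the SD was 0.13 in control and 0.20 in treated cells. The SE from the shared spread can thus be too small for Ccl3. Since the iPSC-derived level lay in the dim range, the size of the difference is that of the measured values and no fold is given.

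Cx3cr1 encodes the receptor for the neuronal chemokine fractalkine. It was at 6.28 ± 0.20 (SD, n = 5) in control, 6.26 ± 0.23 (SD, n = 5) in treated and 6.51 in primary cells, and the groups overlapped. The difference of -0.23 (95% interval -0.60 to 0.15) was not called (limma adjusted p = 0.297). With arrays centred on their median, Cx3cr1 was called lower in control cells (-0.42, limma adjusted p = 0.0487). Trem2 encodes a receptor for lipids and apolipoproteins that signals through the adaptor encoded by Tyrobp. Trem2 was at 6.09 to 6.50 on control, 6.26 to 6.59 on treated, 6.76 to 7.15 on E13.5 and 6.50 to 7.09 on E14.5 arrays, and E14.5 array 3 fell among the iPSC-derived arrays. Control cells were lower by a difference of -0.66 (SE 0.13, limma adjusted p = 0.0013). Aif1 differed by -0.08 (95% interval -0.35 to 0.19), with 4.10 to 4.58 on control and 4.15 to 4.76 on primary arrays.

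Csf1r and Cd68 went the other way. Csf1r, the receptor for the growth factors encoded by Csf1 and Il34, was at 8.63, 7.19, 8.55, 9.35 and 7.31 on control arrays 1 to 5 and at 7.83, 6.61, 8.80, 9.50 and 7.56 on treated arrays 1 to 5. Primary arrays held it at 5.49, 5.80 and 5.95 at E13.5 and at 6.25, 6.04 and 6.46 at E14.5. No primary array reached the lowest iPSC-derived array, treated array 2. Control cells were higher by 2.21 (SE 0.71, 4.63-fold, limma adjusted p = 0.0256). With E13.5 or E14.5 alone as the primary sample, the difference was of like size but not called (limma adjusted p = 0.0826 and 0.163, with 9e-06 to 0.163 over 29 settings). Cd68 was at 9.83, 8.78, 9.48, 10.07 and 9.15 on control arrays and at 9.39, 8.87, 9.89, 10.14 and 9.14 on treated arrays. It was at 6.27, 6.26 and 5.97 at E13.5 and at 6.41, 7.38 and 5.97 at E14.5, well under all iPSC-derived arrays. Control cells were higher by 3.09 (SE 0.37, 8.5-fold, limma adjusted p = 3.3e-05), a call kept in all 29 alternative settings.

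Treated cells were set against the same primary samples, so these values are not independent of those above. The called genes were C1qb (-1.19), C1qc (-1.25), Ctss (-1.05), Ccl3 (-3.63) and Trem2 (-0.50), lower, and Csf1r (2.07) and Cd68 (3.11), higher, by limma, where 41.1% of all genes were called, 19.9% higher and 21.3% lower. C1qa (-0.35), Cx3cr1 (-0.25) and Aif1 (-0.18) did not pass. With arrays centred on their median, C1qa, Cx3cr1 and Aif1 were called lower (limma adjusted p = 0.0089, 0.0331 and 0.0175). With quantile normalization repeated, C1qa and Cx3cr1 were (limma adjusted p = 0.0291 and 0.0365). The Csf1r call (limma adjusted p = 0.035) was lost without treated array 3 (limma adjusted p = 0.067), without treated array 4 (limma adjusted p = 0.0558), with quantile normalization repeated and with either stage alone as the primary sample, with 1.6e-05 to 0.198 over all 29. Ctss was lost against E13.5 alone (-0.34, limma adjusted p = 0.214, with 6.5e-05 to 0.214 over 28 settings), so this call too rests on the E14.5 sample. C1qb was lost there as well (-0.59, limma adjusted p = 0.0777, with 0.00021 to 0.0777 over 29 settings). Trem2 was lost against E14.5 alone (-0.46, limma adjusted p = 0.0744), and with the olfactory median subtracted from each array, a setting chosen after seeing the data, it was at -0.22 (limma adjusted p = 0.179, with 0.00065 to 0.179 over 29 settings). That setting also ended the Ctss call for control cells (-0.75, limma adjusted p = 0.0558). Without both arrays numbered 5, Csf1r was higher than in primary cells by 2.43 in control and 2.19 in treated cells and Cd68 by 3.17 and 3.20, and C1qa joined the lower genes, which were then 6 in each comparison.

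**Figure D2:**
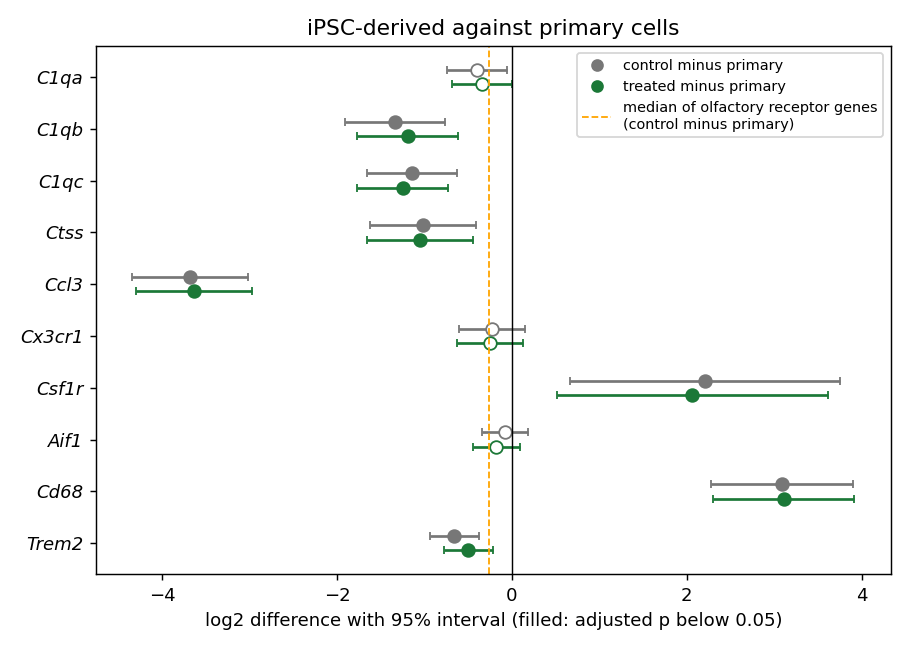
Log2 difference of control (grey) and treated (green) iPSC-derived cells from primary cells for each gene, with 95% intervals; filled points have an adjusted p below 0.05 and the dashed line is the median of olfactory receptor genes. Ccl3 lies farthest to the left, Csf1r and Cd68 lie to the right, and C1qa, Cx3cr1 and Aif1 are open.

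The rest of the microglial genes were read from lists of other genes. Of 19 receptors and adaptors of microglia and macrophages, 9 were lower and 2 higher in control than in primary cells (median -0.25). Over all genes 22.5% were lower and 19.3% higher. Of 1015 dim olfactory receptor genes, 324 were lower and 0 higher, with a median of -0.26. The same shares stand beside the counts of the other lists for control cells. Cd53, a leukocyte tetraspanin gene, differed by -1.10, Tyrobp by -0.99 and Fcer1g, another adaptor gene, by -0.82, while Tlr4 and Tlr2, innate receptor genes, were higher by 0.91 and 0.63. Only 2 of the 19 exceeded the olfactory 95th percentile on every iPSC-derived array and 2 on every primary array, and 7 exceeded it on no array. The mean over the list was 4.79 to 4.92 on iPSC-derived and 4.93 to 5.14 on primary arrays. The leukocyte gene Ptprc (4.00 in control, 4.31 in primary cells) and the integrin gene Itgam (4.18 and 4.51) were called lower at these dim levels, and the macrophage gene Adgre1 (4.12 and 4.37) was not called. Of 11 genes enriched in microglia of the healthy brain, 5 were lower and 2 higher. The purinergic receptor gene P2ry12 was at -0.68 and the Fc receptor-like gene Fcrls at -0.85. P2ry12 lay below the olfactory 95th percentile on every array, and Fcrls on every iPSC-derived and most primary arrays. The higher ones, Sparc (4.18) and Olfml3 (2.69), encode secreted matrix proteins that many other cells make. Tmem119, used as a microglial marker but also made by bone-forming cells, was at 5.92 to 9.16 on iPSC-derived arrays with the highest values on both arrays numbered 5, and was not called (1.30, limma adjusted p = 0.212). In primary cells, Cx3cr1, Csf1r, Cd68, Trem2, Ccl3, C1qb, C1qc and Tyrobp thus stood above the dim range on every array. C1qa did so on 2 E13.5 and 3 E14.5 arrays, and Ctss on the 3 E14.5 arrays only. Aif1, Ptprc, Itgam and Adgre1 stayed within the dim range on every primary array. On the 10 iPSC-derived arrays, Csf1r, Cd68, Cx3cr1 and Trem2 stood above it on all, C1qb on 9 and C1qa and C1qc on 8 each, while Ctss, Ccl3 and Aif1 stood above it on 0. The markers were thus mixed in both kinds of cells, and whether microglia were among the sorted cells was not tested.

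All 15 measured lysosomal genes were higher in control cells, with a median of 2.08, among them Ctsk (3.47), Ctsl (2.72) and Ctsh (2.38), cathepsin genes expressed in many cell types. Ctss, the cathepsin gene of the 10, was called lower instead, but from dim levels on every iPSC-derived and E13.5 array. That call rests on the E14.5 sample, since against E13.5 alone Ctss differed by -0.30. Among 7 ligand genes, 5 were higher and 1 lower: Csf1, a ligand of the Csf1r receptor, was higher by 2.97, Il34, its other ligand gene, by 1.25, and Apoe, whose lipoprotein binds TREM2, by 4.03, while Cd200, a neuronal membrane protein that restrains microglia, was at -3.14. Cx3cl1, the ligand of Cx3cr1, was not called (0.24, limma adjusted p = 0.31).

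Around C1q, 7 of 12 other complement genes were higher and 1 lower in control cells. Serping1, the C1 inhibitor gene, was higher by 3.41, and Cr1l (2.07) and Cd55 (1.92) encode regulators on the cell surface. C1s1 (1.87) and C1ra (1.10), the protease partners of C1q, were higher where C1qb and C1qc were lower, and properdin (Cfp) was at -0.53. Of 13 other chemokines, cytokines and their receptors, 4 were higher and 3 lower. Ccl7 (2.91), Cxcl10 (2.80) and Cxcl16 (2.21) were higher, whereas Ccl4, the close relative and neighbour of Ccl3, was at -1.18. Among 9 myeloid transcription factors, 4 were higher and 0 lower by limma. Runx1 (1.52), Cebpb (1.17) and Maf (0.67), which other lineages also use, were higher, and Irf8 was not called (-0.13, limma adjusted p = 0.489).

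Other cell types were followed with their own lists. In control cells all 10 mesenchyme genes were higher, among them Dcn (5.68), Postn (5.16) and Lum (5.09), as were 8 of 10 astrocyte and radial glia genes, with Gja1 (5.67), Gfap (5.03) and Slc1a3 (3.06). Of 10 endothelial genes 3 were higher and 1 lower, with Cdh5 (3.27), Flt1 (2.26) and Kdr (1.75), and of 8 pericyte genes 4 were higher and 1 lower, with Vtn (4.31), Anpep (2.89) and Pdgfrb (1.57). All 12 dopaminergic genes were lower, among them Th (-4.90), Slc18a2 (-4.70) and Nr4a2 (-4.31), and all 10 neuron genes, among them Ina (-5.00), Dcx (-4.88) and Stmn2 (-4.56). Border macrophage genes were mixed, with 1 of 11 higher, Dab2 (3.02), an endocytic adaptor of many cells, and 3 lower, among them F13a1 (-0.52) and Timd4 (-0.40). The erythroid list was read on 6 of its 11 genes, with embryonic globins as its only globins, because the probe sets of Hba-a1, Hbb-bt and Hbb-bs carry several symbols, so blood is marked only in part. Of the 6, Hbb-y (-0.82) and Hba-x (-0.42) were lower in control cells. Likewise 4 of 10 granulocyte and mast cell genes (Mcpt4 -0.69, Camp -0.44, Mpo -0.43) and 1 of 8 lymphocyte genes (Cd8a -0.49) were lower in control cells. These calls are limited by dim levels. Of the 10 granulocyte and mast cell genes, 7 stood above the dim range on no array. Hbb-y, Hba-x and Mcpt4 lay within it on every control array. Among olfactory receptor genes, 324 of 1015 were also called lower in control cells. Whether the calls mark blood cells in the primary samples was not tested. Of 10 pluripotency genes, Sox2 (1.86) was called higher and Klf4 (-0.71) lower, with a list median of 2.03. Without both arrays numbered 5, 8 of the 10 were higher and 0 lower by limma (median 2.59). The list mean was 7.55 to 8.88 on the other 8 iPSC-derived arrays and 5.64 to 5.99 on primary arrays. Of 14 immediate early genes, 7 were higher and 1 lower, with Ier3 (3.71), Zfp36 (2.48) and Fosb (-1.72). The mean over the mesenchyme list was 9.03 to 10.02 on iPSC-derived and 5.51 to 5.85 on primary arrays, over the glial list 8.94 to 9.80 and 6.66 to 7.24, and over the endothelial list 6.33 to 6.72 and 5.28 to 5.77. Treated cells, set against the same primary samples, gave 7 of 19 microglial receptors lower and 2 higher, 3 of 11 healthy-brain genes lower and 2 higher, and all 15 lysosomal genes higher, with Gpnmb at 2.64, while 6 of 12 complement genes were higher and 1 lower, with C4b at 1.78. For treated cells, 21.3% of all genes were lower and 19.9% higher, and 309 of 1015 olfactory receptor genes were lower. The part of these lists in the values of the 10 genes was not tested.

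**Figure D3:**
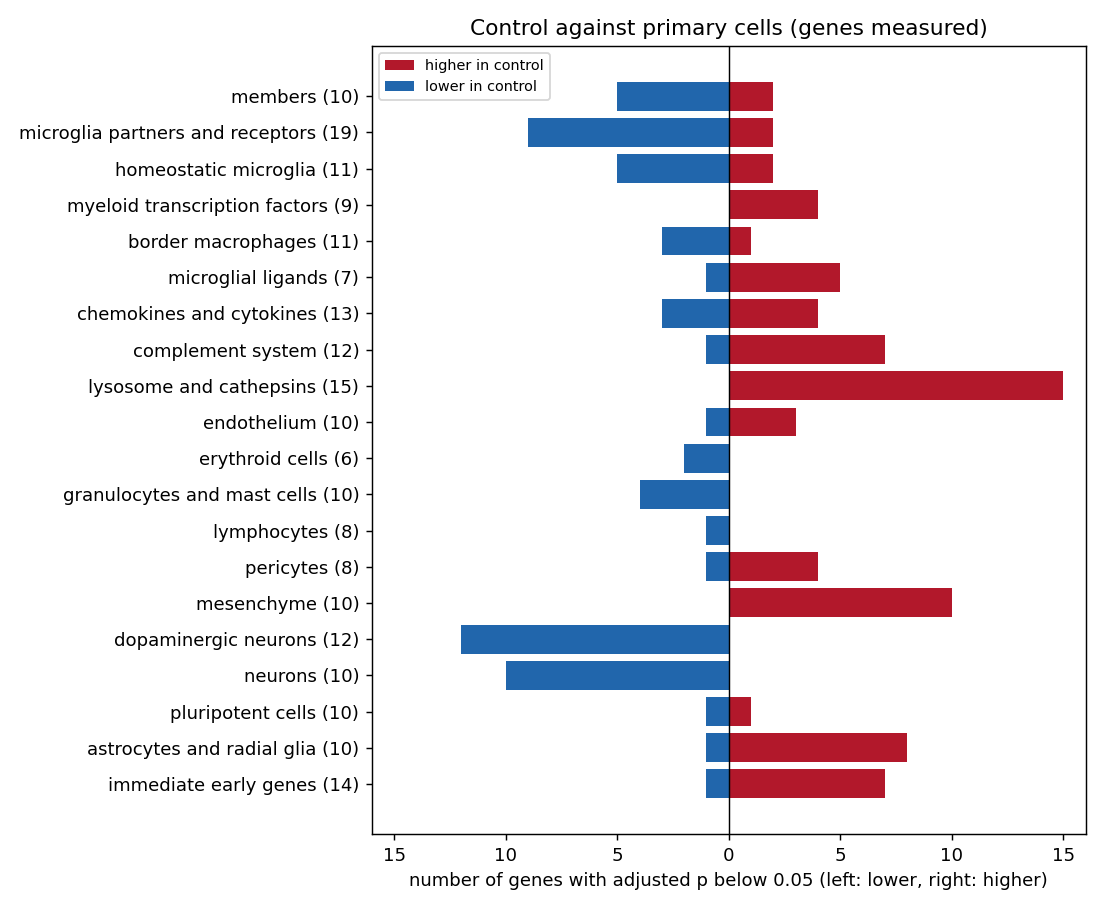
Number of genes in each list that limma called higher (red, to the right) or lower (blue, to the left) in control than in primary cells, with the number measured in brackets. All 15 lysosomal genes lie to the right. Of 19 microglial receptors, 9 lie to the left and 2 to the right, and 8 were not called.

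The treatment comparison asked whether WNT1 with DKK3 altered these genes in iPSC-derived cells. None of the 10 was called by limma, as was the case for 0% of all 19938 genes (smallest adjusted p = 0.753, with 300 genes at an unadjusted p under 0.05). Trem2 had the largest difference relative to its error, at 6.40 ± 0.12 (SD, n = 5) in treated and 6.23 ± 0.17 (SD, n = 5) in control cells, a difference of 0.16 (95% interval -0.06 to 0.38), and the arrays overlapped. Csf1r had the widest interval, with a difference of -0.15 (-1.38 to 1.09) where equal replicate numbers are not paired. For Cd68 it was 0.02 (-0.61 to 0.66). The other 7 genes differed by -0.11 to 0.14, with intervals between -0.40 and 0.43. These intervals are narrow, but Ctss, Ccl3 and Aif1 were at the level of dim probe sets in both groups.

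Csf1r and Cd68 varied together across the iPSC-derived arrays. Csf1r ranged over 2.90 log2 units on these 10 arrays, more than 99.2% of all genes, and Cd68 over 1.36, more than 91% of them, while the other 8 genes ranged over 0.43 to 0.75. Treated array 4 was highest for both, followed by control 4, treated 3, control 1, control 3 and treated 1, in the same order for both genes. Arrays numbered 2 and 5 were the lowest. Pearson's r was 0.966 and Spearman's rho 0.976 (permutation p = 2e-05 for each, adjusted p = 0.0009 over the 45 pairs of the 10 genes, n = 10). Without treated arrays 2 and 4, the farthest from the Csf1r median, r was 0.958 (n = 8). No other pair passed, and the next largest r in size was 0.692. The arrays of each treatment are too few for a value of their own. Whether the 10 arrays are independent of each other is not given in the labels. The permutations treated them as independent, so their p-values may be too small if arrays with equal numbers are linked. Cd68 was 24th of all genes in likeness to Csf1r, behind genes such as Peg10 (r = 0.985), Ets2 (0.984) and Adgrf5 (0.983), named after their values were seen.

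Other lists moved across the same arrays. The mean of the 15 lysosomal genes was highest on treated array 4 (9.91) and control array 4 (9.86) and lowest on treated array 2 (9.56) and control array 2 (9.59). Endothelial Flt1 was at 9.05 and 8.85 on the arrays numbered 4 and at 7.07 and 7.72 on those numbered 2. The mean of 10 pluripotency genes was at 7.56 and 7.55 on the arrays numbered 4, at 8.88 and 8.42 on those numbered 2, and lowest, at 5.68 and 5.76, on those numbered 5, which were also low for Csf1r. Mesenchyme genes had their lowest means on the arrays numbered 4 (9.03 and 9.17). Over the same arrays Cx3cr1 was at 5.98 to 6.57 and Trem2 at 6.09 to 6.59, above the olfactory 95th percentile, and Aif1 at 4.09 to 4.58 and Ctss at 4.20 to 4.63, below it. The part of these lists in the variation of Csf1r and Cd68 was not tested.

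**Figure D4:**
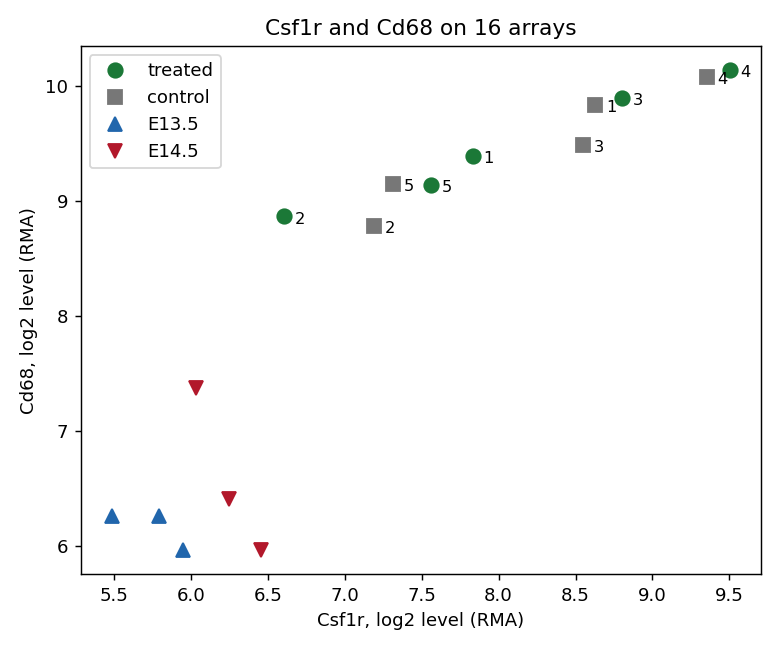
Log2 level of Cd68 against that of Csf1r on all 16 arrays, with replicate numbers beside the iPSC-derived arrays. The iPSC-derived arrays lie along a rising line with both arrays numbered 4 at the top, and the 6 primary arrays lie apart at the lower left.

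Between the primary stages, 3 of the 10 genes were higher at E14.5 and 0 lower by the rule used here, a difference in means of at least 1 log2 unit with no overlap of the technical arrays. Over all genes, 0.241% met this rule (48 genes), 0.176% higher and 0.0652% lower. With 1 sample per stage there was no test, and the comparison is between these samples. Ccl3 was higher by 1.59 (3.01-fold), which placed it 4th by size among the 48 genes, Ctss by 1.43, from a dim E13.5 level (0 of 3 arrays above the olfactory 95th percentile), and C1qc by 1.01 (2.01-fold). C1qc lay just inside the limit. C1qb differed by 1.20, but its arrays overlapped, and it was at 0.49 without E14.5 array 1 and at 1.76 with no overlap, past the rule, without E14.5 array 3. Csf1r differed by 0.50 with no overlap, under the limit. The differences of C1qa (0.28), Cx3cr1 (0.29), Cd68 (0.42), Trem2 (-0.07) and Aif1 (-0.02) were smaller than the limit, with overlap. Over the 10 genes the median was 0.46, against -0.01 over all genes.

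The Ccl3 and C1qc differences rested in part on E13.5 array 3, the array with the highest dim range of all. Without it, Ccl3 differed by 0.68 and C1qc by 0.85, and 1 of the 10 genes, Ctss (1.54), still met the rule. C1qc was also below the limit without E13.5 array 1 (0.999) and without E14.5 array 3 (0.81).

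Few companions met the stage rule. Of 13 chemokine and cytokine genes 1 did, Il1a, an interleukin-1 gene, by 1.35. Of 14 immediate early genes 2 did, Fos by 1.14 and Egr1 by 1.09, which are known to respond to cell dissociation. Of 12 dopaminergic genes 1 did, Aldh1a1, by 1.34. None of the 19 receptors and adaptors met it, nor of the 11 healthy-brain microglia genes, the 9 myeloid factors or the 15 lysosomal genes. Ccl4 differed by 0.61 without overlap, Tyrobp by 0.44 and Cd53 by 0.40 with overlap, and P2ry12 by -0.01. Among the receptors and adaptors, Laptm5 had the largest rise (1.08) and C3ar1 the largest fall (-0.74), both with overlap. Apoe differed by 0.93 without overlap, under the limit. The part of the immediate early genes in the Ccl3 difference was not tested. The erythroid gene Hbb-y was at 4.04, 4.76 and 5.86 on the E13.5 arrays and at 4.83, 4.47 and 4.98 on the E14.5 arrays, with its highest value on the E13.5 array where Ccl3 was lowest.

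**Figure D5:**
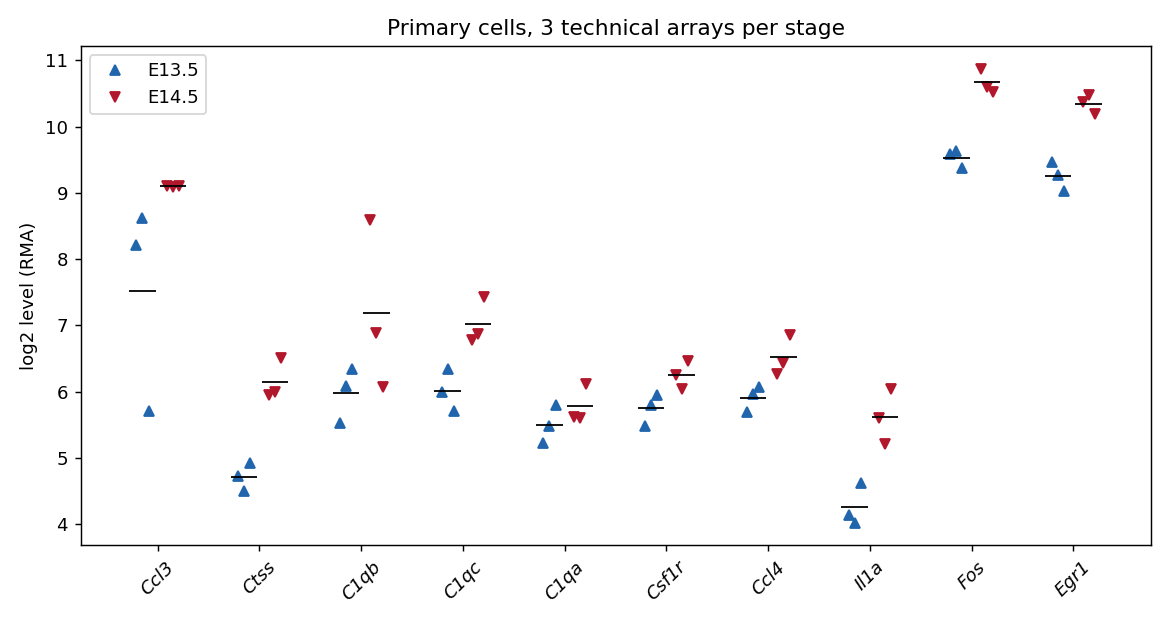
Log2 level of microglia genes and companions on the 3 technical arrays of each primary stage, with black bars for the means. Ctss separates the stages on every array, whereas 1 E13.5 array of Ccl3 lies far below the other 2 and 1 E14.5 array of C1qb lies far above.

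Likeness to the mean of the 10 genes was measured as a description. Over the 12 samples the genes most like it were 1700014D04Rik (r = 0.941), Nfkbid (0.902), Cfl2 (0.891), Dusp1 (0.89) and Hnf4a (0.883). Over the 10 iPSC-derived arrays they were Lrp8 (0.967), Tmem43 (0.96), Yod1 (0.952), 6530411M01Rik (0.95) and Capn1 (0.949). No gene stood in both sets. Over the iPSC-derived arrays Csf1r ranged over 2.90 and Cd68 over 1.36, against 0.43 to 0.75 for the other genes. The mean there thus mostly carries the variation of Csf1r and Cd68.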

How the data were processed

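The values were log2 levels of 35556 probe sets on 16 arrays, as deposited by the authors. RMA and Affymetrix Expression Console 1.2 are named in the submitters' processing notes. The sources used here do not say whether all arrays were normalized together. RNA was amplified before labelling, per the labels' protocols, which can add spread between arrays. Levels after RMA are relative to each array. Gene names came from the platform's probe table (21789 probe sets with 1 symbol, 1621 with several, 12146 not listed), and symbols were checked for 21698 of them against a RefSeq table of GRCm38.p6. The brightest probe set by mean stood for each of the 999 genes that have several.

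R 4.3.3 and limma 3.58.1 (lmFit, eBayes) gave the tests over 19938 genes, adjusted by Benjamini-Hochberg and called at 0.05. Treated and control arrays were compared in a fit of 10 arrays. Comparisons with primary cells used 12 samples in 3 groups, with technical arrays averaged by stage. The scripts were tested on simulated data. The genes named were the 10 genes, up to 3 called genes of every list with the largest difference, and the 5 most like genes for each set of samples. Other names (among them Spi1, Ptprc, Itgam, Adgre1, Tmem119, P2ry12, Irf8, Il34, Cx3cl1, Ccl4, C1s1, C1ra, Cfp, Tlr2, Hbb-y at the stages) were added after values were seen. The genes and lists were chosen with earlier results of these data known. Lists overlap in cell types. Alternatives left out arrays, changed the normalization, filter, prior or block, or used 1 stage alone.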

Additional observations from a re-analysis of the deposited data

How the results depend on the processing

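No result changed sign under a setting while called. With the replicate number of iPSC-derived arrays as a block (replicate block), treated against control gave 1 gene, not among the 10, and C1qa was called lower than primary in control (limma adjusted p = 0.0132) and treated cells (limma adjusted p = 0.0275). Deviations of arrays with equal numbers correlated at 0.045 for number 1 and at 0.435 to 0.798 for the others. Of the 5 numbers, 3 matched best with their own. Apart from number 1, arrays with equal numbers thus shared part of their spread, and whether they mark pairs is not given in the labels. The block narrowed the Csf1r interval for treated against control to -0.52 to 0.23 and that of Cd68 to -0.24 to 0.28, and none of the 10 was called. Against E13.5 alone, 5527 genes were called for control and 5417 for treated cells, with 1 of the 10 higher and 3 lower in each. Against E14.5 alone, 5374 and 5315 genes were called, with 1 of the 10 higher in each. For treated cells, 1 of the 10 was higher after quantile normalization was repeated, 8 were lower with arrays centred on their median, and 1 to 2 were higher when 1 array at a time was left out. Centring moved the share of calls that were higher from 46.2% to 25.6% for control and from 48.3% to 25.8% for treated cells, and subtracting the olfactory median moved it to 72.3% and 74.2%. For the stages, 527 genes met a limit of 0.5, 1 gene and 0 of the 10 met a limit of 2, and leaving out 1 array at a time gave 80 to 105 genes and 1 to 3 of the 10. The causes were not tested. No file held a detection call, so dim levels limit Ctss, Ccl3 and Aif1 in iPSC-derived cells.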
